A study of Homo sapiens with 36 samples.

Results

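The aldo-keto reductases (AKRs) are enzymes that use NADPH to reduce aldehydes and ketones to alcohols. 10 of the 18932 genes in the deposited count table were taken by gene symbol, as family members that clear lipid aldehydes and steroids: AKR1A1, AKR1B1, AKR1B10, AKR1B15, AKR1C1, AKR1C2, AKR1C3, AKR1C4, AKR1D1 and AKR7A2. All 10 passed the filter on low counts at both times. The family was chosen by measured values, the higher counts of AKR1B10 and AKR1B15 with DHA than with Ctrl at 24 h, so that this contrast is given below as a description without a test. The tests of DHA rest on the samples of 6 h and on those with PRO or PCA at 24 h.

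RNA-seq was performed on HepG2, an established human hepatoma cell line, in 36 samples of 12 groups with 3 samples each. Cells in serum-free DMEM received DHA (docosahexaenoic acid, an omega-3 fatty acid, 50 µM, complexed to BSA), PRO (propionate, a short-chain fatty acid, 70 µM), PCA (protocatechuic acid, a phenolic acid, 20 µM), DHA + PRO, DHA + PCA, or BSA and vehicle without a bioactive (Ctrl, labelled DMSO/BSA), for 6 h or 24 h. A sample is the pooled RNA of 3 culture replicates of 1 of 3 independent cultures, so that the spread among the 3 samples of a group is that between cultures of a single cell line. The medium without serum is common to all 12 groups, the Ctrl groups included.

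AKR1A1 (aldehyde reductase) and AKR1B1 (aldose reductase, which turns glucose into sorbitol) are broadly expressed, and AKR1B10 is known for reducing retinal and reactive aldehydes from oxidised fatty acids. The AKR1C enzymes reduce keto groups of steroids and prostaglandins, AKR1D1 is the steroid reductase of bile acid synthesis, and AKR7A2 reduces succinic semialdehyde and aflatoxin dialdehyde. AKR1B10 and AKR1C genes are widely used as readouts of NRF2, the transcription factor that answers oxidative and electrophilic stress in the liver.

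Total counts per sample ran from 4659744 to 42326734, the highest being replicate 2 of DHA + PRO at 24 h, and the other 17 libraries of that time had 5617341 to 8657882 counts. The library numbers in the labels form 2 series, of which the later holds replicate 3 of every group and replicate 2 of DHA + PRO at 6 h. Hepatocyte markers were high in every sample, with ALB (albumin) at 21850 CPM (counts scaled to the TMM-adjusted total of the library) or more and HNF4A at 315.6 CPM or more. PTPRC, which marks leukocytes, had at most 2 counts in any sample, while CD68 (32.7 to 71.5 CPM) and PDGFRB (4.44 to 21.6 CPM), listed as markers of non-parenchymal liver cells, were detected in all 36 samples, and PECAM1, STAB2, DCN and COL1A2 stayed at or under 7.17 CPM.

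The members lie on 3 chromosomes of hg19. AKR1B1 (chr7:134127107-134143888, minus strand), AKR1B10 (chr7:134212344-134226166, plus) and AKR1B15 (chr7:134233849-134264592, plus) are neighbours, with AKR1D1 (chr7:137761178-137803050, plus) further along the same chromosome. AKR1C1 (chr10:5005454-5020158, plus), AKR1C2 (chr10:5029968-5060225, minus), AKR1C3 (chr10:5090958-5149878, plus) and AKR1C4 (chr10:5238798-5260910, plus) form a second cluster. AKR1A1 (chr1:46016455-46035723, plus) and AKR7A2 (chr1:19629202-19638640, minus) lie apart from each other on chromosome 1.

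AKR1B10 and AKR1B15 resemble each other closely enough to share reads, and so do the AKR1C genes. The coding sequences of AKR1C1 and AKR1C2 were identical at 950 of 969 bases (98.0%), those of AKR1C1 and AKR1C3 at 91.4%, and those of AKR1C1 and AKR1C4 at 88.5%. AKR1B10 and AKR1B15 matched at 880 bases and differed at 68, with 84 further bases in gaps (85.3%). Of all 50-base windows of the AKR1C2 coding sequence, 57.1% occurred unchanged in another annotated gene, against 54.3% for AKR1C1, 21.5% for AKR1C4, 28.5% for AKR1B10 and 18.6% for AKR1B15. For 100-base windows these shares were 26.4% for AKR1C2, 20.7% for AKR1C1, 9.8% for AKR1C3, 3.5% for AKR1B10 and 1.8% for AKR1B15. AKR1A1 shared none of its windows at either length, and AKR1D1 shared 0.3% at 50 bases. AKR1B1 shared 7.2% and AKR7A2 10.2% at 50 bases, none of it with another member. For AKR1B10 and AKR1C4 the share with other members alone was 19.8% and 12.2% at 50 bases. How reads that match several genes were counted is not given in the sources used here, nor is the read length. The second coding exon of each pair shows some of the letters that tell the paralogs apart. For AKR1C1 and AKR1C2 this exon holds 10 of the 19 differing bases of the coding sequence, and is denser in them than the rest. It is printed 5′ to 3′ on the coding strand from GENCODE transcripts on GRCh37, with capitals at the bases that differ within the pair (11 of 168 for AKR1B10 and AKR1B15, 10 of 168 for AKR1C1 and AKR1C2), for AKR1B10 (chr7:134215395-134215562), AKR1B15 (chr7:134252910-134253077), AKR1C1 (chr10:5008106-5008273) and AKR1C2 (chr10:5043706-5043873, minus strand):
AKR1B10: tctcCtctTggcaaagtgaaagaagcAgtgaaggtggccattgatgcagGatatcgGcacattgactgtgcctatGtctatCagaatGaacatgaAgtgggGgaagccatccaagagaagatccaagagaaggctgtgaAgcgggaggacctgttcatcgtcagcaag
AKR1B15: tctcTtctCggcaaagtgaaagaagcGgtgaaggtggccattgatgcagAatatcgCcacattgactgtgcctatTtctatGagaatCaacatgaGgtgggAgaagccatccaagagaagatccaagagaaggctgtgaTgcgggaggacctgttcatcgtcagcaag
AKR1C1: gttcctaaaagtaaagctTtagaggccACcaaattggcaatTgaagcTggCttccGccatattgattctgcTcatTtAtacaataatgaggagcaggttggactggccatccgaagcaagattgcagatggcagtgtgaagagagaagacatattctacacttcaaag
AKR1C2: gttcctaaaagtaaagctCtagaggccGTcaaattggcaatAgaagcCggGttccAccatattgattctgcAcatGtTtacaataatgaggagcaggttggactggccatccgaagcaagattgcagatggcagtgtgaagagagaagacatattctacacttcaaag

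Levels were set side by side between genes per length, in RPKM, which divides CPM by the counted length of the gene in kilobases (mean ± SD, n = 3). In Ctrl at 6 h, AKR1C1 stood at 771 ± 41.4 RPKM, AKR1C3 at 474 ± 70.9 and AKR1C2 at 251 ± 7.58. AKR1A1 (85.9 ± 5.13), AKR1B1 (83.4 ± 6.62), AKR1B10 (79.0 ± 6.90) and AKR1C4 (77.3 ± 7.76) lay within each other's spread. AKR7A2 followed at 21.6 ± 2.87 RPKM, and AKR1B15 (9.63 ± 1.36) and AKR1D1 (7.89 ± 0.713) were lowest and did not differ beyond their spread. In Ctrl at 24 h the order was another one, with AKR1C3 at 176 ± 8.30 RPKM and AKR1C1 at 176 ± 26.6, which did not differ beyond their spread. AKR1A1 (83.5 ± 5.46), AKR1B1 (69.6 ± 5.81) and AKR1C2 (47.1 ± 4.64) came next. AKR1B10 (28.5 ± 4.95) and AKR7A2 (27.8 ± 2.82) did not differ beyond their spread, nor did AKR1D1 (22.6 ± 0.502) and AKR1C4 (21.6 ± 3.21), and AKR1B15 was lowest at 2.82 ± 0.503 RPKM. AKR1C2 has a counted length of 3505 bases against 1379 for AKR1C1, which lowers its RPKM relative to its counts.

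**Figure D1:**
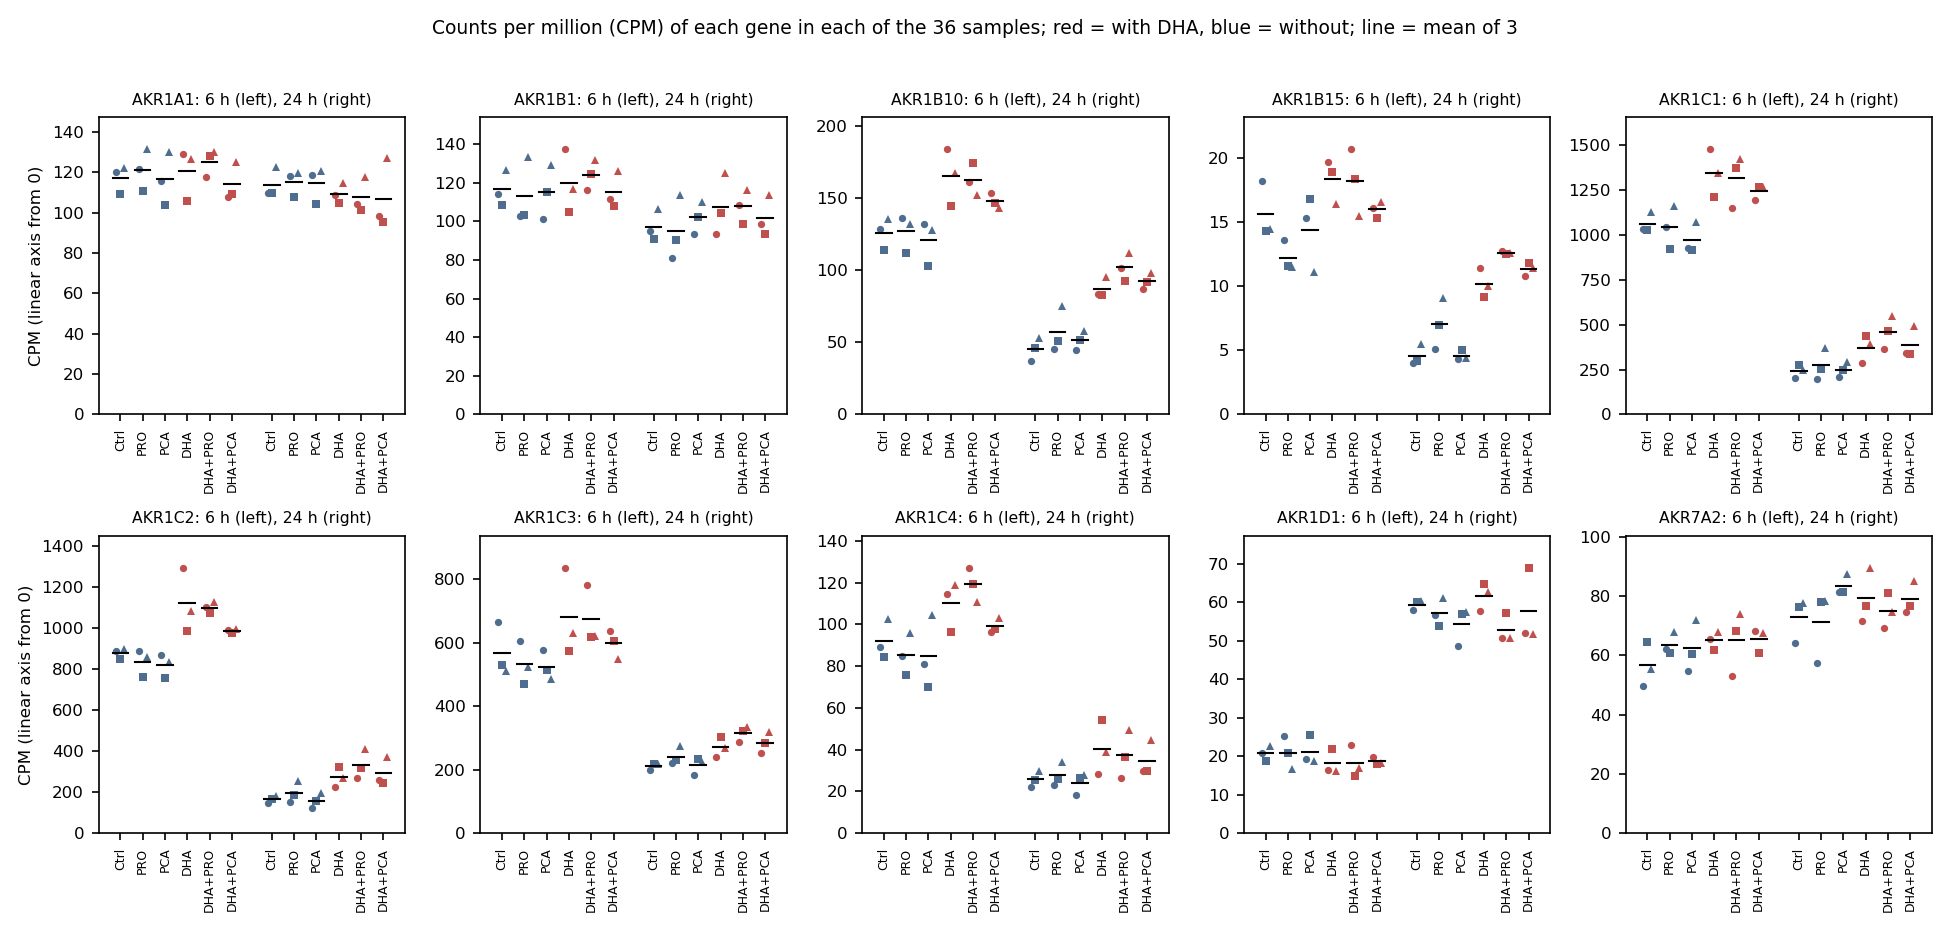
Level of each of the 10 aldo-keto reductases in CPM (linear vertical axes from 0) in all 36 samples, with 6 h on the left and 24 h on the right of each panel. Circles, squares and triangles are replicates 1, 2 and 3, red marks samples with DHA and blue those without, and lines are means of 3 samples. AKR1B10, AKR1B15 and the 4 AKR1C genes were lower at 24 h than at 6 h and AKR1D1 was higher, and at 24 h the samples with DHA lay above most of those without for AKR1B10, AKR1B15 and AKR1C2.

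In the contrast that led to the choice of the family, AKR1B10 was at 37.1, 46.3 and 52.8 CPM in Ctrl and at 83.4, 82.6 and 95.5 CPM in DHA at 24 h. The samples did not overlap, and the log2 fold change was 0.94 ± 0.15 (SE). AKR1B15 was at 4.03, 4.199 and 5.52 CPM in Ctrl and at 11.4, 9.16 and 9.98 CPM in DHA, a log2 fold change of 1.14 ± 0.21. The fitted log2 fold changes of the other members were 0.72 for AKR1C2, 0.66 for AKR1C4, 0.62 for AKR1C1, 0.35 for AKR1C3, 0.15 for AKR1B1, 0.12 for AKR7A2, 0.06 for AKR1D1 and -0.06 for AKR1A1.

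Whether DHA acted on the family in the presence of the other bioactives was asked by comparing DHA + PRO with PRO and DHA + PCA with PCA at 24 h, 6 samples with DHA against 6 without. AKR1B10, AKR1B15, AKR1C1, AKR1C2 and AKR1C3 rose with DHA, between 1.32-fold and 2.11-fold, and no member fell. Calls were made with edgeR's quasi-likelihood test and required a Benjamini-Hochberg adjusted p (over all genes tested) not above 0.05, and a mean log2 CPM greater than 0. Of 11893 genes 0.135% were called higher and 0.454% lower, against 5 of 10 members higher. Among these 5, AKR1B10 and AKR1B15 led to the choice of the family, through other samples of the same cultures. Reads may be shared between them and among the AKR1C genes, so that the 5 calls are not separate. With the culture, given by the replicate number, as a block in the fit, the calls over all genes went from 70 to 151 and those of members from 5 to 6. In bulk RNA, more cells that express a gene and more RNA per cell cannot be told apart.

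AKR1B10, the reductase of lipid aldehydes, was at 45.3, 50.8 and 75.5 CPM in PRO and at 102, 92.8 and 112 CPM in DHA + PRO. It was at 44.6, 51.5 and 58.2 CPM in PCA and at 87.3, 92.1 and 98.4 CPM in DHA + PCA. All samples with DHA lay above all those without, with replicate 3 of PRO the highest of the latter. The log2 fold change over both pairs was 0.84 ± 0.11 (SE), with an adjusted p of 3.1e-05 in edgeR's quasi-likelihood test.

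AKR1B15, its neighbour and close paralog, was at 5.07, 6.97 and 9.09 CPM in PRO and at 12.7, 12.5 and 12.6 CPM in DHA + PRO. In PCA it was at 4.34, 4.99 and 4.40 CPM, against 10.8, 11.8 and 11.4 CPM in DHA + PCA. Here too the samples with and without DHA did not overlap. Its log2 fold change was 1.08 ± 0.14, the largest of the 10 members in this comparison, with an adjusted p of 5.8e-05 by edgeR, and its counts in the 12 samples ran from 26 in PCA replicate 1 to 521 in the deep library.

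AKR1C1, which inactivates progesterone, was at 199, 251 and 373 CPM in PRO and at 368, 466 and 551 CPM in DHA + PRO. It was at 206, 246 and 293 CPM in PCA and at 342, 335 and 493 CPM in DHA + PCA. The PRO pair overlapped, since replicate 3 of PRO lay above replicate 1 of DHA + PRO, and the PCA pair did not. The log2 fold change was 0.70 ± 0.14 with an adjusted p of 0.0098 by edgeR. The call was lost without replicate 3 of DHA + PRO (adjusted p = 0.0512 by edgeR) and without replicate 3 of DHA + PCA (adjusted p = 0.0538).

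AKR1C2, which inactivates dihydrotestosterone, was at 151, 184 and 254 CPM in PRO against 271, 319 and 409 CPM in DHA + PRO. In PCA it was at 122, 155 and 197 CPM, and in DHA + PCA at 260, 244 and 374 CPM. The groups of neither pair overlapped. AKR1C2 rose by a log2 fold change of 0.83 ± 0.14, with an adjusted p of 0.0011 by edgeR.

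AKR1C3, which makes active androgens and prostaglandin F, was at 221, 229.9 and 273 CPM in PRO and at 287, 321 and 336 CPM in DHA + PRO. It was at 185, 233 and 224 CPM in PCA and at 251, 284 and 318 CPM in DHA + PCA. The groups of neither pair overlapped, although replicate 3 of PRO lay above replicate 1 of DHA + PCA. AKR1C3 had the smallest rise of the 5 called members, with a log2 fold change of 0.40 ± 0.08 and an adjusted p of 0.0085 by edgeR.

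AKR1C4, the liver enzyme that reduces steroids and bile acid intermediates, ran from 18.04 to 34.2 CPM in the 6 samples without DHA and from 26.6 to 49.4 CPM in the 6 with it. Its log2 fold change was 0.48 ± 0.16 with an adjusted p of 0.37 by edgeR, which did not pass the test. With the replicate block it was called (0.47, adjusted p = 0.025). AKR1A1 (log2 fold change -0.10 ± 0.07), AKR1B1 (0.09 ± 0.09), AKR1D1 (-0.01 ± 0.08) and AKR7A2 (0.00 ± 0.08) did not pass it either, with adjusted p of 0.93 or more. The 95% confidence intervals of these 4 log2 fold changes lay between -0.25 and 0.27.

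**Figure D2:**
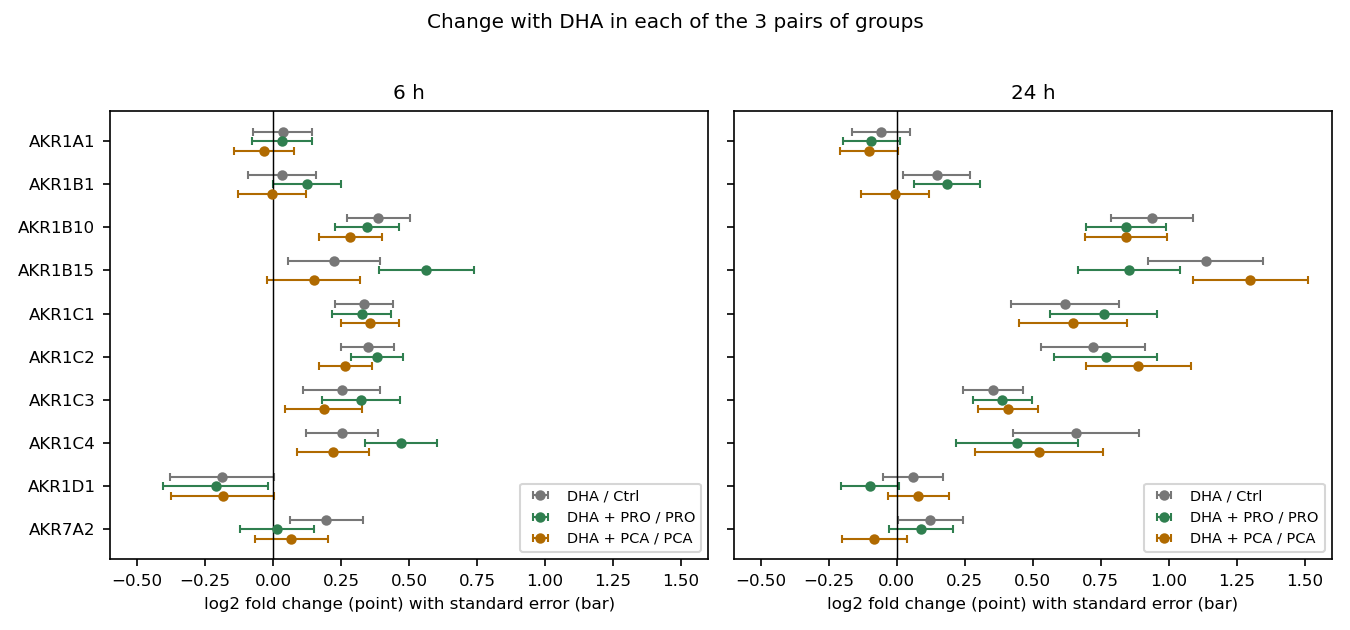
Fitted log2 fold change with DHA (points) and its standard error (bars) for each aldo-keto reductase in the 3 pairs of groups, DHA over Ctrl, DHA + PRO over PRO and DHA + PCA over PCA, 3 samples against 3 each, at 6 h (left) and 24 h (right). The vertical line marks no difference. For AKR1B10 the 3 estimates lay between 0.28 and 0.39 at 6 h, and between 0.84 and 0.94 at 24 h, and for AKR1A1 from -0.10 to 0.03 over both times.

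Taken singly, the pairs gave fewer calls. With PRO, AKR1B10 alone was called (log2 fold change 0.84 ± 0.15, adjusted p = 0.0054 by edgeR), against 0.227% of all genes called in either direction, and AKR1B15 narrowly missed (0.85 ± 0.19, adjusted p = 0.054). The call of AKR1B10 was lost without replicate 3 of DHA + PRO (adjusted p = 0.0611), and without replicate 3 of PRO 3 further members, AKR1B15, AKR1C1 and AKR1C2, were called (adjusted p = 0.0178, 0.0178 and 0.032). With the replicate block 4 members were called beside AKR1B10 with PRO, AKR1B15 (0.86, adjusted p = 0.016 by edgeR), AKR1C1 (0.78, 1.8e-04), AKR1C2 (0.77, 1.8e-04) and AKR1C3 (0.39, 0.0051), and the calls over all genes went from 27 to 99. With PCA, AKR1B10 (0.84 ± 0.15, adjusted p = 0.0073), AKR1B15 (1.30 ± 0.21, adjusted p = 0.0028) and AKR1C2 (0.89 ± 0.19, adjusted p = 0.046) were called by edgeR, against 0.277% of all genes. The call of AKR1B10 with PCA was lost without replicate 1 of PCA (adjusted p = 0.0736) or replicate 3 of DHA + PCA (0.0617). That of AKR1C2 was lost without either of these (0.39 and 0.333), without replicate 2 of PCA (0.242) and without replicate 1 of DHA + PCA (0.0811), while AKR1B15 was called without any of the 6 samples. AKR1C2 also lost its call with PCA under upper quartile scaling (adjusted p = 0.0506 by edgeR) and in the Wald test of DESeq2 (0.0824). With the replicate block AKR1C1 (0.65, adjusted p = 0.0019 by edgeR) and AKR1C3 (0.41, 0.0037) joined the 3 members called with PCA, and the calls over all genes went from 33 to 79. All 3 samples with DHA lay above all 3 without for 4 members with PRO (AKR1B10, AKR1B15, AKR1C2 and AKR1C3) and for 6 with PCA (the same 4, AKR1C1 and AKR1C4), against 5.33% and 7.08% of all genes tested.

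The difference between the DHA effect with PRO and with PCA was tested as an interaction. No member, and no gene of 11893, was called by edgeR, while 1137 genes (9.56%) had an unadjusted p under 0.05. For AKR1B10 the difference was 0.00 with a 95% confidence interval from -0.43 to 0.43 on the log2 scale, for AKR1C2 it was -0.12 (-0.68 to 0.43), and for AKR1B15 it was -0.45 (-1.03 to 0.14). In the later library series, which holds 1 sample of each 24 h group, the log2 ratio of AKR1B10 was 0.57 for DHA + PRO over PRO and 0.76 for DHA + PCA over PCA. For AKR1B15 it was 0.47 and 1.37, for AKR1C1 0.57 and 0.75, for AKR1C2 0.68 and 0.93, and for AKR1C3 0.30 and 0.50, each above 0.

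Since paralogs can share reads, the split of counts was examined between AKR1B10 and AKR1B15 and between AKR1C1 and AKR1C2. AKR1B15 took 10.1% ± 1.42 (SD, n = 36) of the counts of AKR1B10 and AKR1B15, with a range from 7.03% to 14.0%. At 24 h its share was 11.0% ± 1.01 in PRO, 11.0% ± 0.894 in DHA + PRO, 8.24% ± 1.05 in PCA and 10.9% ± 0.504 in DHA + PCA (n = 3). The share was 1.35 percentage points higher with DHA than without over both pairs (exact two-sided permutation test within pairs, p = 0.07, where the smallest p possible is 0.005). AKR1C1 took 59.4% ± 2.40 of the counts of AKR1C1 and AKR1C2 in Ctrl at 24 h and 54.8% ± 0.930 at 6 h. At 24 h its share was 58.0% ± 1.31 in PRO and 58.1% ± 1.08 in DHA + PRO, against 61.4% ± 1.51 in PCA and 57.2% ± 0.587 in DHA + PCA. With DHA the share differed by -2.03 percentage points over both pairs (exact two-sided permutation test, p = 0.07). Without replicate 2 of PRO or replicate 3 of DHA + PRO the first p was 0.025 in the exact test, and without replicate 1 of PRO or replicate 2 of DHA + PRO the second was 0.03 or 0.04.

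Summing the rows that may share reads left the rise with DHA in place. AKR1B10 and AKR1B15 together rose by a log2 fold change of 0.86 ± 0.10 at 24 h (adjusted p = 1.86e-05 by edgeR), and the 4 AKR1C genes together by 0.64 ± 0.12 (adjusted p = 0.0038). In the single pairs the AKR1B sum was called with PRO (0.84, adjusted p = 0.0044) and with PCA (0.89, adjusted p = 0.0037), and the AKR1C sum in neither (0.64 and 0.63, adjusted p = 0.17 in both).

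**Figure D3:**
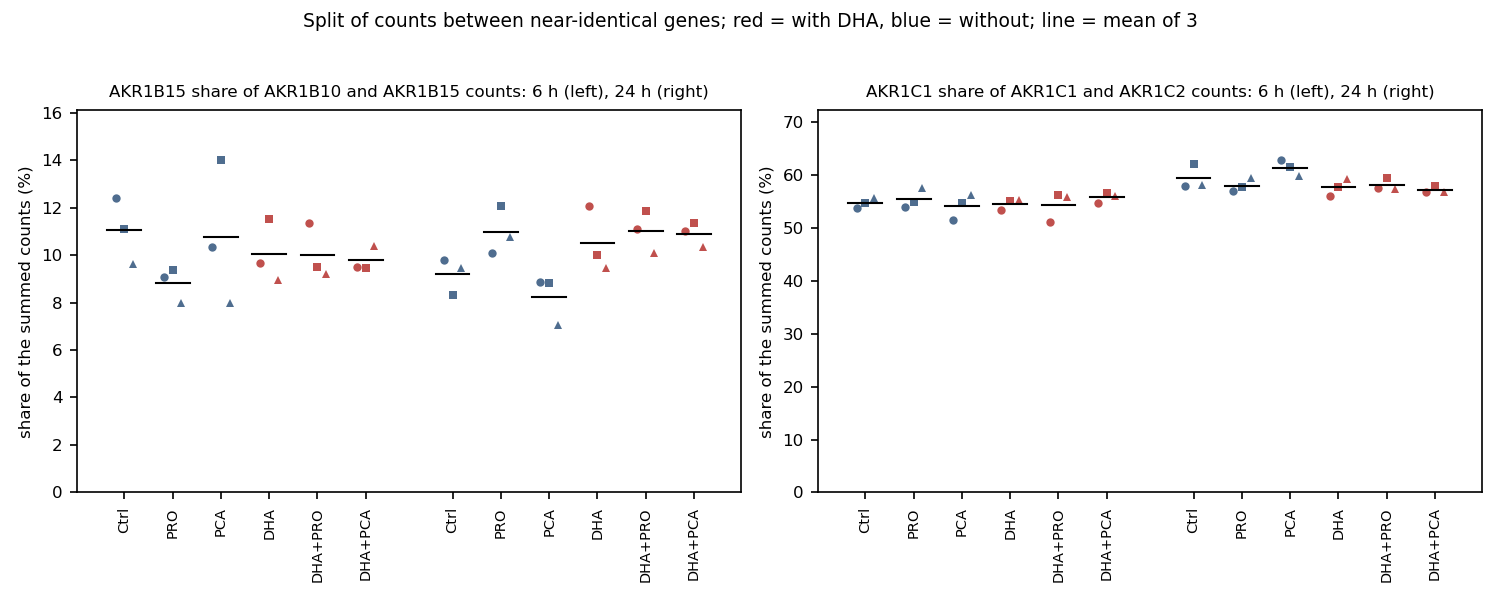
Share of AKR1B15 in the summed counts of AKR1B10 and AKR1B15 (left) and of AKR1C1 in those of AKR1C1 and AKR1C2 (right), in percent on axes from 0, for each of the 36 samples. Circles, squares and triangles are replicates 1, 2 and 3, red marks samples with DHA, blue those without, and lines are means of 3. The AKR1B15 share ran from 7.03% to 14.0% and the AKR1C1 share from 51.2% to 62.9%.

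At 6 h the DHA effect was taken over all 3 pairs, 9 samples against 9. AKR1B10, AKR1C1 and AKR1C2 rose by about the same factor, 1.26-fold, and no member fell, against 0.0505% of 11872 genes called higher and 0.152% called lower. AKR1C1 and AKR1C2 may share reads, so that their calls are not separate. AKR1B10 was at 128, 114 and 136 CPM in Ctrl against 184, 145 and 167 CPM in DHA. It ran from 103 to 136 CPM in the 6 samples with PRO or PCA alone and from 143 to 175 CPM in the 6 of DHA + PRO and DHA + PCA, with no overlap between samples with and without DHA. Its log2 fold change was 0.34 ± 0.07 with an adjusted p of 0.036 by edgeR.

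AKR1C1 ran from 914 to 1162 CPM in the 9 samples without DHA at 6 h and from 1154 to 1480 CPM in the 9 with it, overlapping in 1 sample of each kind. AKR1C2 ran from 755 to 899 CPM without and from 977 to 1295 CPM with DHA and did not overlap. The log2 fold changes were 0.34 ± 0.06 for AKR1C1 (adjusted p = 0.024 by edgeR) and 0.33 ± 0.06 for AKR1C2 (adjusted p = 0.011). AKR1C2 was called without any of the 18 samples, whereas AKR1B10 was called in 3 and AKR1C1 in 7 of the 18 fits that left out 1 sample, with adjusted p of up to 0.114 and 0.0828. AKR1C4 (0.31 ± 0.08, adjusted p = 0.18), AKR1B15 (0.31 ± 0.10, adjusted p = 0.77) and AKR1C3 (0.25 ± 0.08, adjusted p = 0.85) did not pass the test by edgeR. With the replicate block AKR1C3 (adjusted p = 0.0027 by edgeR) and AKR1C4 (0.0040) were called as well, with 64 calls over all genes in place of 24. AKR1D1 (-0.19 ± 0.11), AKR7A2 (0.09 ± 0.08), AKR1B1 (0.05 ± 0.07) and AKR1A1 (0.01 ± 0.06) did not pass the test with or without the block.

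The DHA effect in the PRO and PCA pairs at 24 h minus that at 6 h was positive for AKR1B15 (0.71 ± 0.18), AKR1B10 (0.52 ± 0.14), AKR1C2 (0.49 ± 0.17) and AKR1C1 (0.35 ± 0.18) on the log2 scale. None of these differences was called without a block, with an adjusted p of 0.9995 for each by edgeR. No gene of 12046 was called, and 254 (2.11%) had an unadjusted p under 0.05, a share below that cutoff. The unadjusted p was 3.6e-04 for AKR1B15 and 8.2e-04 for AKR1B10 in edgeR's quasi-likelihood test. With the replicate block the differences of AKR1B10 (0.52, adjusted p = 0.013 by edgeR) and AKR1C2 (0.50, adjusted p = 0.015) were called, among 10 genes in all.

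PRO and PCA alone were each compared with Ctrl at both times. No member was called by edgeR, and no gene was called in any of the 4 comparisons. An unadjusted p under 0.05 was reached by 716 genes with PRO (6.02%) and 454 with PCA (3.82%) at 24 h. At 6 h it was reached by 196 with PRO (1.65%) and 86 with PCA (0.724%). The Ctrl samples of 24 h used here are those of the contrast that led to the choice of the family. The largest values were those of AKR1B15 with PRO, a log2 fold change of 0.59 ± 0.22 at 24 h (adjusted p = 0.78) and -0.36 ± 0.17 at 6 h (adjusted p = 1). For AKR1B10 at 24 h the 95% confidence interval of the log2 fold change ran from -0.0014 to 0.63 with PRO and from -0.14 to 0.50 with PCA. As a description, DHA + PRO against DHA alone at 24 h gave log2 fold changes from -0.22 (AKR1D1) to 0.31 (AKR1C1), and DHA + PCA against DHA alone from -0.23 (AKR1C4) to 0.16 (AKR1B15).

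Between 6 h and 24 h of culture without DHA (Ctrl, PRO and PCA together, 9 samples each), the members separated into those that fell and those that rose. AKR1C2 (log2 fold change -2.29 ± 0.10), AKR1C1 (-2.01 ± 0.11), AKR1C4 (-1.76 ± 0.12), AKR1B15 (-1.41 ± 0.11), AKR1C3 (-1.29 ± 0.08) and AKR1B10 (-1.28 ± 0.08) fell, each with an adjusted p of 9.7e-13 or less by edgeR. AKR1B1 fell by 0.23 (SE 0.08, adjusted p = 0.012). AKR1D1, the reductase of bile acid synthesis, rose by 1.44 (SE 0.09, adjusted p = 2.1e-15), and AKR7A2 by 0.31 (SE 0.07, adjusted p = 7.0e-04). AKR1A1 did not pass the test (-0.05 ± 0.06, adjusted p = 0.57). The 9 calls, of both directions together, stand against 48.4% of 12046 genes called in either direction, 24.3% higher and 24.1% lower. AKR1D1 and AKR7A2 alone were called higher, a smaller share of the members than the 24.3% of all genes, and the other calls were lower. The Ctrl samples of 24 h, whose low AKR1B10 and AKR1B15 counts entered the choice of the family, are part of this contrast. Without the Ctrl groups, an alternative added after the data had been seen, the log2 fold change was -1.19 for AKR1B10 (adjusted p = 2.5e-11 by edgeR), -1.23 for AKR1B15 (4.4e-09), -2.23 for AKR1C2 (8.2e-16) and -1.95 for AKR1C1 (6.2e-14), and AKR1B1 lost its call (-0.21, adjusted p = 0.0693).

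AKR1C2 was at 888, 848 and 899 CPM in Ctrl at 6 h and at 148, 168 and 180 CPM in Ctrl at 24 h, without overlap. AKR1D1 was at 20.8, 18.8 and 22.6 CPM in Ctrl at 6 h and at 57.9, 60.0 and 60.3 CPM at 24 h. With DHA present (DHA + PRO and DHA + PCA, not DHA alone), 24 h against 6 h gave, as a description, -1.74 ± 0.12 for AKR1C2, -0.68 ± 0.10 for AKR1B10, -0.52 ± 0.12 for AKR1B15 and 1.58 ± 0.11 for AKR1D1. In the matching groups, PRO and PCA alone, it gave -2.23 ± 0.12 for AKR1C2, -1.19 ± 0.10 for AKR1B10, -1.23 ± 0.13 for AKR1B15 and 1.40 ± 0.11 for AKR1D1. In the 9 samples with DHA at 24 h, AKR1C2 ran from 224 to 409 CPM, below its lowest value at 6 h in any group, 755 CPM. AKR1B10 ran from 82.6 to 112 CPM in the same samples, and the highest of them lay above its lowest value at 6 h, 103 CPM. The time of incubation coincides with time in serum-free medium and since seeding, which cannot be told apart.

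**Figure D4:**
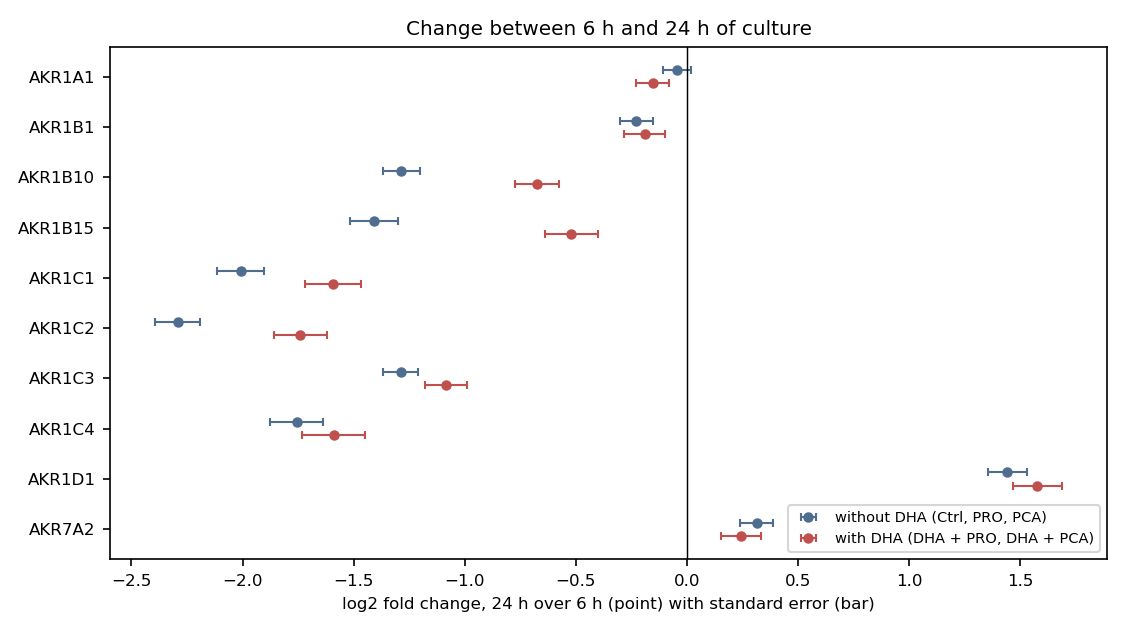
Fitted log2 fold change of 24 h over 6 h (points) with its standard error (bars) for each aldo-keto reductase, without DHA (Ctrl, PRO and PCA, 9 samples against 9, blue) and with DHA (DHA + PRO and DHA + PCA, 6 against 6, red). Values left of the vertical line are lower at 24 h. The blue points include the Ctrl samples of 24 h that entered the choice of the family, and the red points hold no samples of DHA alone. With PRO and PCA alone the value was -1.19 for AKR1B10 and -1.23 for AKR1B15. AKR1C2 was lowest at -2.29 without and -1.74 with DHA, and AKR1D1 was highest at 1.44 and 1.58.

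AKR1C1 and AKR1C2, whose coding sequences are alike enough to share reads, are also alike upstream of the starts listed for them in a promoter table. A link between this likeness and their levels was not tested. In the RefSeq promoter table (GRCh38.p14), 8 of the 10 members had an entry, and AKR1B10 and AKR1B15 had none. The 250 bases before the AKR1C1 and AKR1C2 starts matched at 245 bases in 1 unbroken run. It lay 246 to 2 bases before the AKR1C1 start and 250 to 6 bases before that of AKR1C2. The AKR1C2 window (chr10:5003858-5004107, minus strand) belongs to a start inside the span of the counted AKR1C2 row, not to the outer end of that span. The window of AKR1C1 (chr10:4963165-4963414, plus strand) is printed with that run in capitals:
AKR1C1 upstream: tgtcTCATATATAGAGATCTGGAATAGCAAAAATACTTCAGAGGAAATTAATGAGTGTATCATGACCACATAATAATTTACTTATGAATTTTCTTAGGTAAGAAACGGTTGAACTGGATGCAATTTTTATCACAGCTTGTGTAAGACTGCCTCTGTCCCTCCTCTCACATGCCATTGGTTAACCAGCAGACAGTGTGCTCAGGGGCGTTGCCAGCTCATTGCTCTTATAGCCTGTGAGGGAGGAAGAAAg
The core of the antioxidant response element, the letters TGACNNNGC on either strand, through which NRF2 is known to act, occurred in the 250 bases upstream of 1 of the 8 members, AKR7A2. The share among all 35116 windows of the same length was 10.9%. The search covered these windows only.

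Genes of neighbouring functions were counted from lists, each against all genes tested, in DHA on top of PRO or PCA at 24 h. The lists were chosen with earlier results of these data known, so that their counts are descriptions. Of 19 NRF2 target genes tested, 4 rose and none fell by edgeR, against 0.135% of all genes called higher and 0.454% lower. They were NQO1 (quinone reductase, log2 fold change 0.39, adjusted p = 4.5e-04), OSGIN1 (0.65, adjusted p = 0.029), SRXN1 (sulfiredoxin, 0.31, adjusted p = 0.012) and TXNRD1 (thioredoxin reductase, 0.28, adjusted p = 0.033). Under the block 8 rose, the same 4 with FTL, GCLC, HMOX1 and SLC7A11 (adjusted p from 0.0068 for HMOX1 to 0.044 for FTL). The median log2 fold change of the list was 0.22, against 0.00 over all 11893 genes. At 6 h OSGIN1 alone rose (0.63, adjusted p = 0.027 by edgeR), against 0.0505% of all genes called higher, with a list median of 0.11. With the block 5 rose at 6 h, OSGIN1, TXNRD1, GCLC, GCLM and SRXN1 (adjusted p of 0.036 or less). Between 6 h and 24 h without DHA, 14 of the 19 fell, against 24.1% of all genes, and 3 rose, against 24.3%, OSGIN1 falling by 0.85 and TXNRD1 by 0.99 on the log2 scale.

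Of 14 genes of steroid and bile acid metabolism tested, 1 fell at 24 h with DHA, HSD17B12 (an enzyme of fatty acid elongation and steroid reduction, log2 fold change -0.38, adjusted p = 0.021 by edgeR), and none rose. None of 16 aldehyde dehydrogenases passed the test, with ALDH18A1 (0.06) and ALDH1A1 (0.34) those of highest level. No call was made among 15 other carbonyl and enal reductases, where DHRS2 (0.03) and ADH5 (0.02) were highest in level, or among 4 other genes of the aldo-keto reductase superfamily, where KCNAB2 (0.12) and AKR7A3 (-0.09) were highest. Under the block ALDH1A1 (0.35, adjusted p = 0.0075 by edgeR) rose and the reductase RDH11 (-0.24, adjusted p = 0.016) fell. The list medians were 0.00 for steroid and bile acid genes, 0.06 for aldehyde dehydrogenases, 0.00 for other reductases and 0.11 for the superfamily. None of the 8 hepatocyte markers and none of the 3 non-parenchymal markers that passed the filter was called in this comparison. The summed level of the 8 hepatocyte markers ran from 62530 to 69970 CPM without and from 62560 to 71240 CPM with DHA, and that of the 7 non-parenchymal markers from 55.5 to 75.6 CPM without and from 57.4 to 71.6 CPM with DHA.

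Over the 36 samples, which share the large difference between the times, the log2 CPM of AKR1C1 and AKR1C2 correlated at Pearson's r = 0.995, that of AKR1B10 and AKR1B15 at 0.95 and that of AKR1B10 and AKR1C1 at 0.94. AKR1D1 ran opposite to AKR1C1 (r = -0.93). Outside the family, the genes most like AKR1B10 were GPX2 (glutathione peroxidase, r = 0.96), TXNRD1 (0.92), TALDO1 (0.92), OSGIN1 (0.91) and SRXN1 (0.91), of which all but GPX2 stand in the NRF2 list. The genes most like AKR1C1 were TXNRD1 (0.97), DNAJA1 (0.95), ALDH3A2 (0.95), APMAP (0.95) and GPX2 (0.95), of which TXNRD1 alone stands in that list. These correlations are descriptions over samples of 2 times, which include the DHA and Ctrl samples of 24 h that led to the choice of the family. How far shared reads enter those between paralogs was not tested.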

How the data were processed

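Poly(A)-enriched RNA of 36 HepG2 samples was sequenced (TruSeq v2), aligned by the authors with STAR to hg19/GRCh37 and counted with the iRNA-seq pipeline. The deposited table holds whole-number counts per gene, not normalized, and the length of each gene's span and counted part. Treatment of multi-mapping reads, strand and read length are not given in the sources used here, and no molecular identifiers are described. In 3 replicates per group, totals ran from 4659744 to 42326734 counts, and the lowest member count was 24.

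Counts were filtered (filterByExpr), scaled by TMM and tested across all genes with edgeR 4.0.16 (quasi-likelihood F test, Benjamini-Hochberg adjustment) in R 4.3.3, within each time, or over all 36 samples for contrasts between times. A call needed an adjusted p not above 0.05 and a mean log2 CPM greater than 0. Fold changes are edgeR estimates, and 95% intervals use the t distribution with the degrees of freedom of the test. CPM used TMM-scaled totals, and RPKM the counted length. Shares of paralogs were compared by exact permutation. Per the labels, replicates were pooled within each of 3 independent cultures, and the file headers tie a replicate number to the same pooled replicates in every group, so that the numbers were taken to mark the culture. Of same-number pairs of samples, 36 of 45 at 6 h and 34 of 45 at 24 h correlated above 0.1 in their deviations from the group means, and 15 of 18 samples at each time were closest to their own number. The fit without a block is the one reported, and values with the replicate block stand beside it where they changed a call. The scripts were tested on simulated data. Alternatives were DESeq2 1.42.0 (size factors, Wald test), upper quartile scaling, no filter, the groups compared alone, replicate or library series as a term, summed paralogs, the deep library thinned, and each sample left out.

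The members and gene lists were chosen with earlier results of these data known. Named were all members, the list genes called in the pooled DHA contrasts (at most 5 a list) or, with no call, the 2 of highest level, and the 5 genes most correlated with AKR1B10 and with AKR1C1.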

Additional observations from a re-analysis of the deposited data

How the results depend on the processing

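The 5 members called for DHA on top of PRO or PCA at 24 h were called under all 9 other settings, and the 3 called at 6 h under all 8 other settings. With paralog rows summed, which is 1 of these settings, a member took the call of its sum and was not tested alone. With 1 sample left out in turn, 4 to 5 members were called at 24 h and 1 to 3 at 6 h. The single pairs moved more. With PRO, where 1 member was called, the number was 4 without a filter on low counts, 2 by the DESeq2 Wald test, 4 with library series as a term, 0 with only the groups compared, 2 with paralog rows summed and 0 to 4 with 1 sample left out. With PCA, where 3 were called, it was 5 without the filter, 2 under upper quartile scaling, by the Wald test and with paralog rows summed, 4 with only the groups compared and 1 to 3 with 1 sample left out. At 6 h it was 6 with paralog rows summed. The call of a sum counted there for each of its members. The 2 with PRO and the 2 with PCA were thus the AKR1B sum alone. With the replicate number as a block, 5 members were called with PRO, 5 with PCA, 6 over both pairs and 5 at 6 h, and for the difference between the times 2, AKR1B10 (adjusted p = 0.013 by edgeR) and AKR1C2 (0.015). The block changed no other call of a member, and no other count of members. Among all genes, calls with PRO, with PCA, over both pairs and at 6 h went from 27, 33, 70 and 24 to 99, 79, 151 and 64 under the block, to 75, 65, 103 and 32 without the filter, to 47, 52, 100 and 45 by the Wald test, and to 43, 41, 88 and 46 with library series. With only the groups compared, 2 genes were called with PRO. The difference between the times had 10 calls under the block and 1 by the Wald test, PRO against Ctrl at 24 h had 10 without the filter and 1 by the Wald test, and the interaction of PRO and PCA had 3 without the filter. The share of AKR1B15 differed by 1.05 to 1.63 percentage points with 1 sample left out (exact permutation p from 0.025 to 0.145) and that of AKR1C1 by -2.42 to -1.66 (p from 0.03 to 0.13), and under the replicate block the differences were 1.35 (p = 0.125) and -2.03 (p = 0.156). Comparing the times without the Ctrl groups, chosen after seeing the data, gave 8 members in place of 9. The causes of these changes were not tested. No called log2 fold change of a member changed sign under any alternative, while 127 of 2170 values did, none called in either fit, with main values of at most 0.17 in size on the log2 scale. AKR1B15 rests on 26 to 88 counts in the 24 h libraries of the PRO and PCA pairs other than the deep one, which limits its precision.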
